A study of Mus musculus with 17 samples.

Results

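The nuclear-encoded subunits of the mitochondrial respiratory chain were described in mouse liver RNA. Members were the protein-coding genes of the deposited count table whose symbols begin as those of complex I (Ndufa, Ndufb, Ndufc, Ndufs and Ndufv with a number), complex II (Sdha to Sdhd), complex III (Uqcr and Cyc1), complex IV (Cox4 to Cox8) or complex V (Atp5). The pattern found 85 of 24676 genes, of which 36 belonged to complex I, 4 to complex II, 9 to complex III, 19 to complex IV and 17 to complex V. Ndufa4 and Ndufa4l2 were placed in complex IV, to which the protein Ndufa4 was reassigned. Testing was limited to genes that reached 10 normalized counts in 4 or more libraries, and 80 of the 85 did. The study crossed Gata4 genotype with an agonist of the liver X receptors (LXR), lipid-sensing nuclear receptors, in 17 libraries. All mice were males of mixed strain, with Gata4 fl/fl alleles, and all had received an AAV8 virus 1 week before. In the arm labelled Gata4LKO the virus carried Cre driven by Tbg, a hepatocyte promoter, and in the control arm it was empty, so that Cre and the loss of Gata4 cannot be told apart. The sample labels give an age of 11 weeks, which the design text of the series contradicts. The agonist GW3965 was gavaged at 40 mg/kg in canola oil, or DMSO as vehicle, at 17 h and 8 h before sacrifice, after a fast of 4 h. By their titles, 4 libraries were control with vehicle and 4 control with GW3965, while of those labelled Gata4LKO 4 had vehicle and 5 had GW3965. The treatment label contradicted the title in all libraries of the Gata4LKO vehicle and control GW3965 groups. Since no label ties libraries to single mice, p-values measure the spread between these libraries.

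The respiratory chain passes electrons from NADH (complex I) and succinate (complex II) to ubiquinone, from there through complex III to cytochrome c, and through complex IV to oxygen. The proton gradient made on the way drives ATP synthase, complex V. Most subunits are encoded in the nucleus and imported, while a few core subunits of complexes I, III, IV and V are encoded in mitochondrial DNA, so that assembly needs transcripts of both genomes. Nuclear respiratory factor 1 (NRF1), the ETS-family factor GABP, YY1 and the oestrogen-related receptors (ERR) are known regulators of the nuclear set. Hepatocytes are rich in mitochondria, and the liver uses the chain for fatty acid oxidation, gluconeogenesis and the urea cycle.

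Libraries held 11.8 to 22.05 M reads in genes. The mitochondrially encoded share of the normalized counts was 15.6% to 32.6% in 5 libraries, called high-share here, and 6.06% to 7.26% in 12. The high-share libraries were control vehicle 1, control GW3965 10 and 13, and Gata4LKO GW3965 17 and 18. The fewest genes above 0 were in Gata4LKO vehicle 6 (15515) and Gata4LKO GW3965 16 (15601), against 16456 to 19729 elsewhere. Gata4 itself was at 128 to 183 normalized counts in control vehicle, 137 to 234 in Gata4LKO vehicle, 164 to 258 in control GW3965 and 160 to 260 in Gata4LKO GW3965 libraries, so the whole-gene count did not show the labelled loss. Genotype comparisons below therefore rest on the labels, though which exons are floxed is not given and a whole-gene count checks the labels only in part. The pseudogene Gm5345 was at 0 to 1.64 in all 4 Gata4LKO vehicle libraries and in replicates 9 and 10 of control GW3965, and at 23.1 to 101 elsewhere. With vehicle, genotype cannot be told apart from this split. Hepatocyte markers such as Alb were at the level of a liver sample in every library, with 895197 to 1722490 normalized counts of Alb.

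Members were expressed over a wide range of levels, with large subunits of the F1 head of ATP synthase among the highest. Levels are given here as normalized counts per kb of transcript, the mean over all 17 libraries, because only a value per length can be compared between genes. In complex V, the catalytic F1 beta subunit Atp5b was the highest at 8093 per kb and the F1 alpha subunit Atp5a1 was at 5665. In complex IV, the ubiquitous isoform Cox4i1 was the highest at 5720 per kb, and Cox6b1, which joins the monomers of the enzyme, was at 5583. In complex III, the hinge protein Uqcrh was the highest at 4299 per kb, while the catalytic subunits Cyc1 (cytochrome c1) and Uqcrfs1 (the Rieske iron-sulfur protein) were at 1104 and 1878. In complex II, the flavoprotein Sdha was at 2813 per kb, the iron-sulfur subunit Sdhb at 2080, and the membrane anchors Sdhc and Sdhd at 1096 and 1953. In complex I, the accessory subunit Ndufa6 was the highest at 2919 per kb, and the core subunits of the NADH module Ndufv1 and Ndufs1 were at 1230 and 924. The median over tested members was 996 per kb in complex I, 2017 in complex II, 1878 in complex III, 1676 in complex IV and 1721 in complex V. The lowest tested members were Ndufs5 in complex I (82.4 per kb), Uqcrb in complex III (979.6), Cox7a1 in complex IV (16.3) and Atp5g1 in complex V (20.3). Atp5g1 was divided by a length of 2675.5 bases, and Atp5g2 (21.7 per kb) by 586. In mean normalized counts of control vehicle they were at 53.2 and 16.1, so their order rests on the length. Complex II spanned 2.57-fold from Sdhc to Sdha and complex III 4.39-fold, whereas complex I spanned 35.4-fold, complex IV 351-fold and complex V 398-fold. Ndufb1 has no value per kb, since the annotation used for lengths holds no protein-coding transcript of it.

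**Figure D1:**
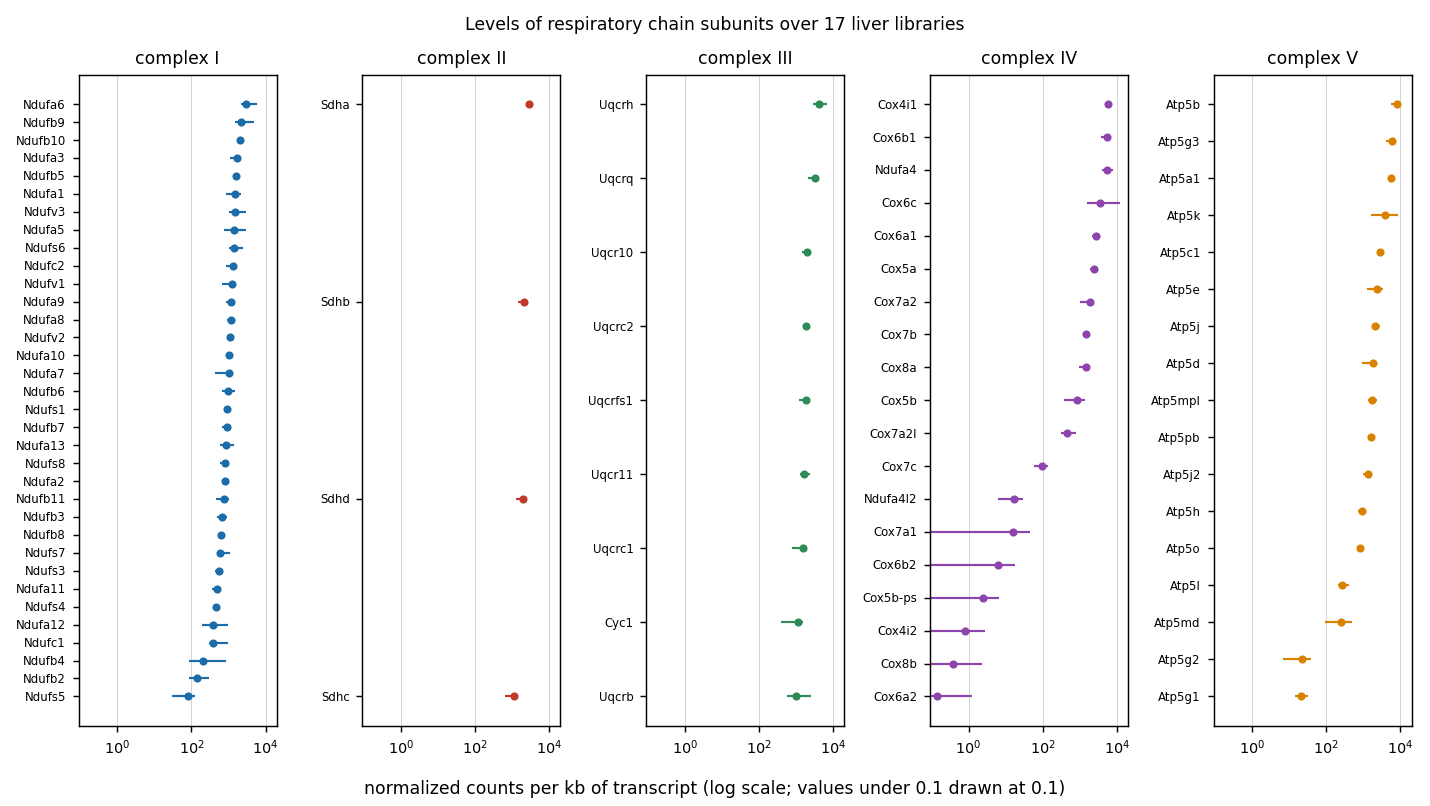
Normalized counts per kb of transcript on a log axis for 83 of the 84 members with a transcript length, by complex; points are means over 17 libraries and lines run from the lowest to the highest library. Atp5b reached 8093 per kb, and the low tail in complex IV held the isoforms Ndufa4l2, Cox7a1, Cox6b2, Cox4i2, Cox8b and Cox6a2 and the gene Cox5b-ps.

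Isoform pairs were uneven, again in mean normalized counts per kb over the 17 libraries. The muscle isoforms Cox6a2 and Cox8b were at 0.143 and 0.371 per kb, against 2709 for Cox6a1 and 1498 for Cox8a. The lung-enriched isoform Cox4i2 was at 0.801 per kb and the testis isoform Cox6b2 at 6.14, against 5720 for Cox4i1 and 5583 for Cox6b1. These 4 genes and Cox5b-ps, a gene named as a pseudogene of Cox5b (2.42 per kb), were the 5 members below the filter. Cox7a1, the heart and skeletal muscle isoform, passed at 16.3 per kb, against 1842 for Cox7a2. The supercomplex factor Cox7a2l was at 466 per kb, and Ndufa4l2, a hypoxia-induced paralog, at 17.2 against 5527 for Ndufa4. Of the 3 genes that encode the identical c-ring subunit of ATP synthase, Atp5g3 was at 5919 per kb, Atp5g1 at 20.3 and Atp5g2 at 21.7. Cox7b2 and Cox8c were not analysed here.

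Some low values belonged to genes whose transcripts share sequence with other genes. Of the 79 tested members with a transcript length, 33 had no 50-base stretch in the transcripts of another gene and 17 had over 20% of their stretches there. The share was 87.4% for Atp5g2, 84.8% for Atp5l, 37.0% for Ndufb4, 23.03% for Cox7c and 22.9% for Ndufs5. At higher levels it was 50.3% for Atp5o (818 per kb), 38.7% for Atp5pb (1608) and 32.0% for Cox5a (2453). Among the lowest tested members, Cox7a1 and Ndufa4l2 shared 0% and Atp5g1 11.1%. Across these 79 genes, which come from the same libraries, the level per kb and the shared percentage had a Spearman rho of -0.31, given as a description. Of the 11 mitochondrially encoded protein genes in the table, mt-Co2, mt-Co3, mt-Atp6 and mt-Nd3 were at 0 to 3.79 normalized counts in every library, while mt-Co1 was at 196083 to 1020100. The counting of reads that match several places is not described in the sources used here, and its part in the low values was not tested.

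The first principal component of the 80 members held 55.6% of their variance and set the 5 high-share libraries apart, at 2.16 to 6.39, from the other 12, at -1.85 to -1.10. The summed normalized count of the members overlapped, at 118004 to 139943 in the 5 libraries and 126151 to 142883 in the other 12. Their share of all normalized counts was 0.616% to 0.676% in the 5 and 0.787% to 0.899% in the 12. Mitochondrially encoded counts, by which the 5 were set apart, are part of that total. Of the counts from nuclear genes the members' share overlapped, at 0.730% to 0.916% and 0.843% to 0.958%, with medians of 0.830% and 0.915%. The overlap came only through Gata4LKO GW3965 17 at 0.916%, and the next highest of the 5, control GW3965 13, was at 0.832%. Single subunits lay apart in both directions. Among the 80 tested, 12 members were higher in each of the 5 libraries than in any of the other 12, as were 6.05% of all tested genes. A further 17 were lower in each of the 5 than in any of the 12, as were 4.44% of all genes. The libraries were split by the mitochondrially encoded counts and not by the members, but the split was chosen with results of these data known, so it is given as a description, with no test.

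**Figure D2:**
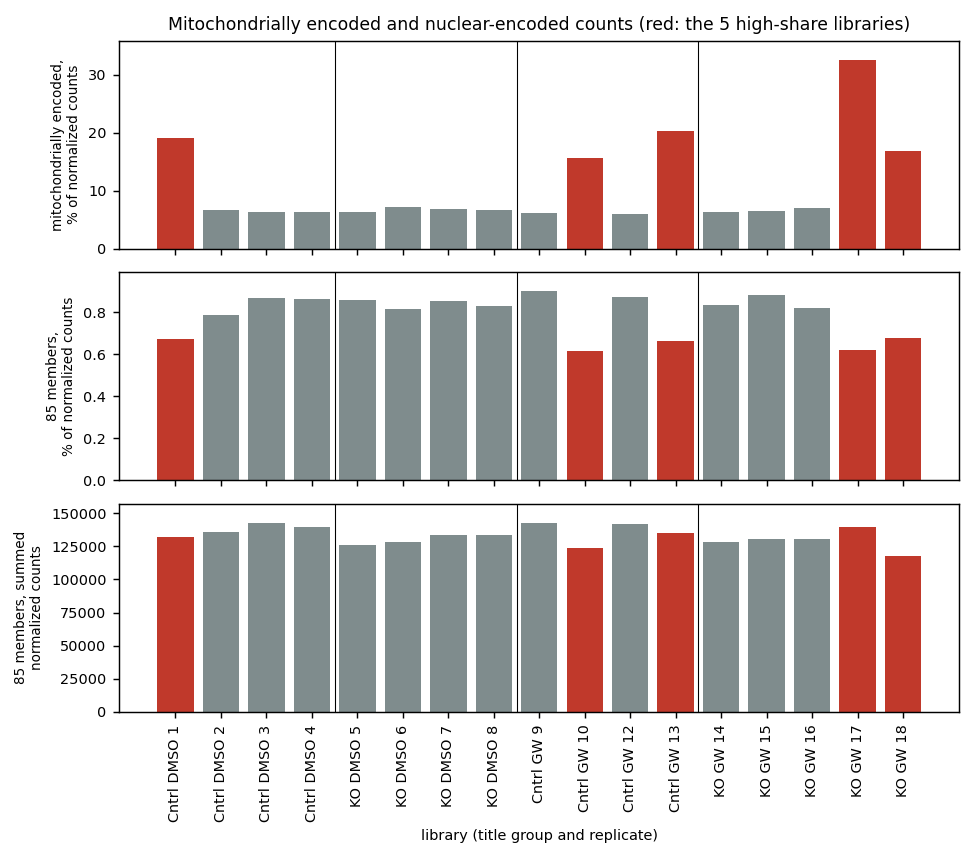
Per library, the percentage of normalized counts from mitochondrially encoded genes (top), the percentage from the 85 members (middle) and the members' summed normalized count (bottom). The 5 red libraries lie at 15.6% to 32.6% in the top panel and at 0.616% to 0.676% in the middle panel, while the sums in the bottom panel overlap.

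The members higher in the 5 libraries were mostly small accessory subunits of complex I. They were Ndufa5, Ndufa6, Ndufa12, Ndufb3, Ndufb4, Ndufb9, Ndufb10, Ndufs6 and Ndufv3 of complex I, Uqcrh of complex III, and Cox5b and Cox6c of complex IV. Ndufb4, an accessory subunit of the membrane arm (ENSMUSG00000022820; chromosome 16, 37647170 to 37654453, minus strand, mm10), had 399, 107, 81.4 and 95.1 normalized counts in control vehicle. It had 105, 157, 100.1 and 128 in Gata4LKO vehicle, 114, 275, 83.1 and 352 in control GW3965, and 101, 107, 115, 819 and 299 in Gata4LKO GW3965. Every value of 275 or more belonged to a high-share library, and the 12 others lay between 81.4 and 157. Cox6c, a small subunit of complex IV (chromosome 15, 35925886 to 35938246, minus strand), had 3514, 1548, 1424 and 1476 in control vehicle and 1317, 1054, 1313 and 1441 in Gata4LKO vehicle. With GW3965 it had 1424, 2789, 1401 and 3669 in control and 1435, 1416, 928, 7525 and 2498 in Gata4LKO libraries. The lowest high-share value, 2498, was above the highest of the others, 1548. Ndufa12 ranged from 450.02 to 802 in the 5 libraries and from 162 to 258 in the 12, and Ndufb9 from 1776 to 3424 and from 1049 to 1245. Averaged over the 3 groups that held both kinds of library, the log2 difference was 1.98 for Ndufb4, 1.41 for Cox6c, 1.21 for Ndufa12 and 1.08 for Ndufb9.

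The members lower in the 5 libraries were of mixed kinds and included subunits that carry electrons or catalyse ATP synthesis. Among them were Ndufv1, Ndufs3, Ndufa9 and Ndufb11 of complex I, Sdhb, Sdhc and Sdhd of complex II, Cyc1, Uqcrfs1, Uqcrc1, Uqcr10 and Uqcrq of complex III, and Atp5b, Atp5d, Atp5e and Atp5g3 of complex V. Cyc1 (chromosome 15, 76343523 to 76346260, plus strand) had 1128, 1823, 1893 and 1808 normalized counts in control vehicle and 1723, 2052, 1774 and 1776 in Gata4LKO vehicle. With GW3965 it had 2032, 1366, 2077 and 1230.1 in control and 1791, 1845, 2320.5, 607 and 1285 in Gata4LKO libraries. Its 5 lowest values were those of the 5 high-share libraries. Atp5e, the F1 epsilon subunit (chromosome 2, 174461072 to 174464105, minus strand), was at 536 to 648 in these and at 911 to 1415 in the 12. Uqcrfs1 was at 1633 to 1883 against 2667 to 3168, Sdhc at 1287 to 1708 against 2123 to 2626, and Atp5b at 10889 to 13509 against 15592 to 18628. The within-group log2 difference averaged -1.07 for Atp5e, -0.84 for Cyc1, -0.71 for Uqcrfs1, -0.67 for Sdhc and -0.43 for Atp5b. The core subunits Ndufs1, Ndufs7, Sdha and Atp5a1 overlapped between the 5 libraries and the 12.

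By complex, the counts were uneven. Of all tested genes, 6.05% were higher and 4.44% lower in this way, as a background for the counts by complex and by gene list. In complex I, 0 of 7 core subunits were higher and 3 lower, and of the 29 accessory subunits 9 were higher and 2 lower. In complex II, 3 of 4 were lower, while Sdha overlapped at 7768 to 8765 against 7165 to 8975. In complex III, 1 of 9 was higher and 5 lower, in complex IV 2 of the 14 tested were higher and 0 lower, and in complex V 0 of 17 were higher and 4 lower. The 12 higher members summed to 14637 to 26176 normalized counts in the 5 libraries and 8539 to 10670.1 in the 12, and the 17 lower members to 31096 to 37655 and 47571 to 54056. The ratio of these sums was 0.403 to 0.842 in the 5 and 0.170 to 0.210 in the 12. Both sets were chosen by these values, so the sums only show their size. Beyond overlap were also 5 higher and 5 lower of 49 assembly factors, 1 and 4 of 27 genes of electron carriers and exchange, and 1 and 2 of 19 biogenesis regulators. Of 77 tested mitochondrial ribosome genes 5 were higher and 5 lower, and of 14 citrate cycle genes 1 was higher and 0 lower. All 7 tested mitochondrially encoded genes were higher, mt-Nd2 the most, at 417965 to 1295280 against 109010 to 151083.

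**Figure D3:**
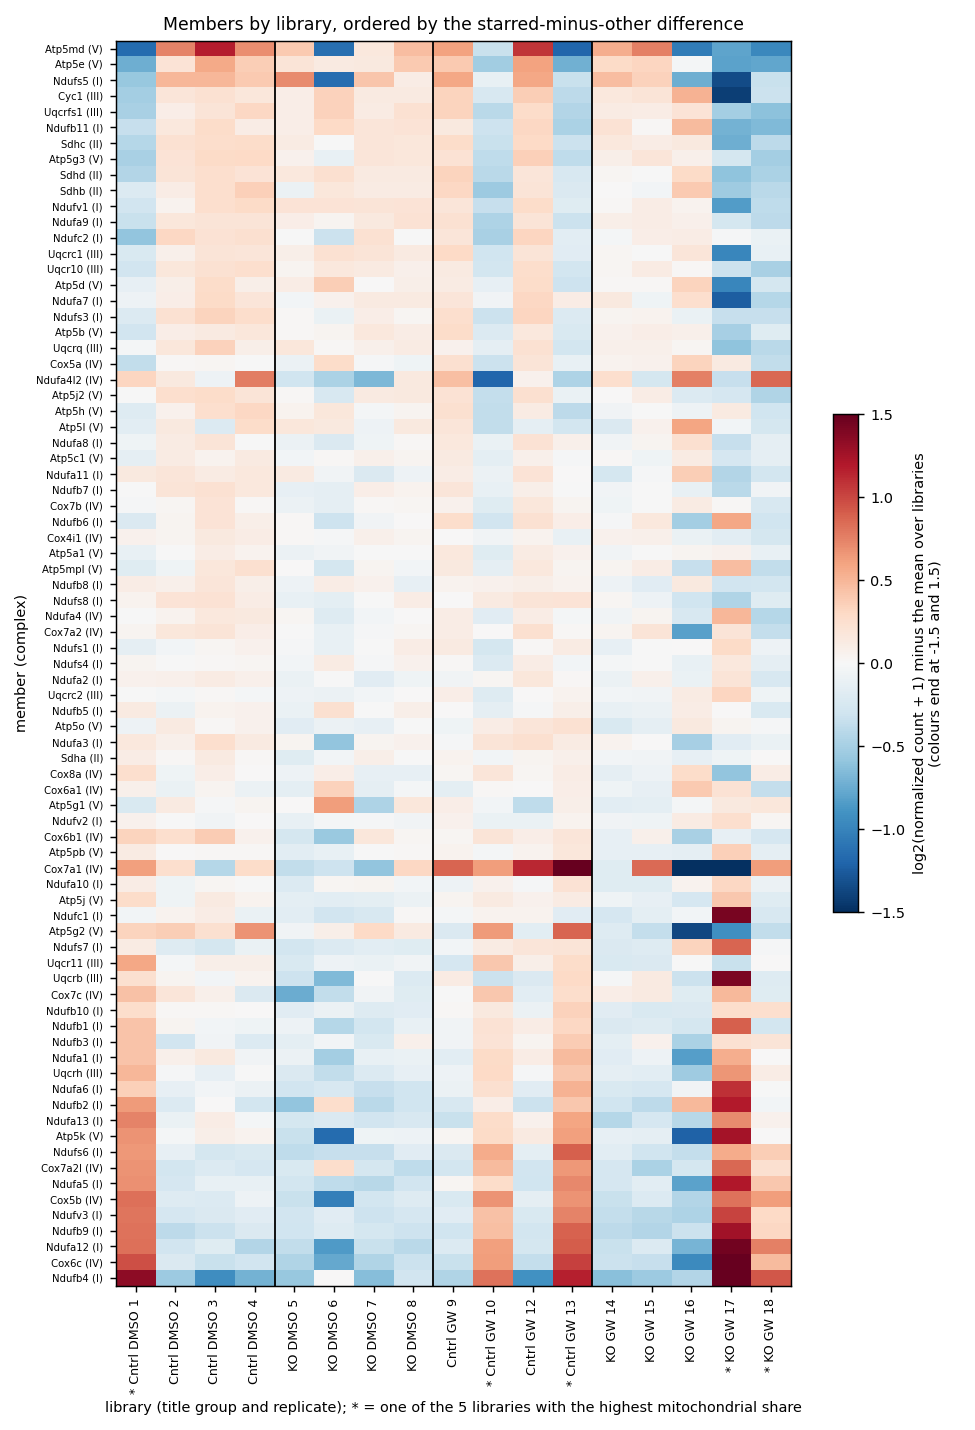
Of the 80 tested members, 79 (rows, complex in parentheses) by library (columns), coloured by log2(normalized count + 1) minus the member's mean over libraries; rows are ordered by the difference between starred and other libraries within groups. Ndufb4, Cox6c and Ndufa12 at the bottom are high, and Cyc1, Atp5e and Uqcrfs1 near the top low, in the 5 starred libraries, in all 3 groups that contain them.

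Over all 12090 tested genes with a transcript of known composition, the 5-against-12 difference and the GC content of the transcript had a Spearman rho of -0.35. The same measure over 79 members was -0.05, and the median GC content was 52.4% in the 12 higher and 53.8% in the 17 lower members. Median transcript length was 674.5 bases in the higher and 1231 in the lower members. Among all tested genes it was 3214.5 in the higher and 2233.75 in the lower. The Spearman rho with length was -0.14 over the members and 0.08 over all genes. Reads in genes were 11.8 to 20.1 M in the 5 libraries and 14.9 to 22.05 M in the 12. The hepatocyte marker list had 0 of 8 genes beyond overlap in either direction, and the Kupffer cell list 0 of 10, where 10.5% of all genes were. Median within-group log2 differences were 0.04 and -0.15 in these lists. They were 0.59 over 4 cholangiocyte and -0.70 over 5 erythroid markers, which also had 0 beyond overlap. The part of RNA quality, depth or cell makeup in this pattern was not tested, and in bulk RNA fewer cells of a type and less RNA per cell cannot be told apart.

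In the other 12 libraries the members were closely spaced. The SD within groups, on the log2(normalized count + 1) scale, had a median of 0.26 over the 80 members with all 17 libraries and 0.12 with the 12. Over all 13379 tested genes the medians were 0.32 and 0.23. For citrate cycle genes the median with the 12 was 0.10, and for mitochondrial ribosome genes and hepatocyte markers it was 0.16. It was 0.16 for genes of electron carriers and exchange and 0.18 for assembly factors, so close spacing was not particular to the members. With the 12 libraries, 33 of 80 members had a within-group SD below 0.1, against 5 with all 17. Among the tightest were Ndufb10 (0.043), Atp5a1 (0.045) and Ndufa9 (0.048). The widest were Cox7a1 (0.96), which was low in counts, Atp5md (0.69), Ndufs5 (0.60) and Atp5k (0.45). Among the 12, the values of Atp5md, Ndufs5 and Atp5k were lowest in replicates 6 and 16, the libraries with the fewest genes. The first component of the 12 libraries alone held 60.3% of the members' variance.

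**Figure D4:**
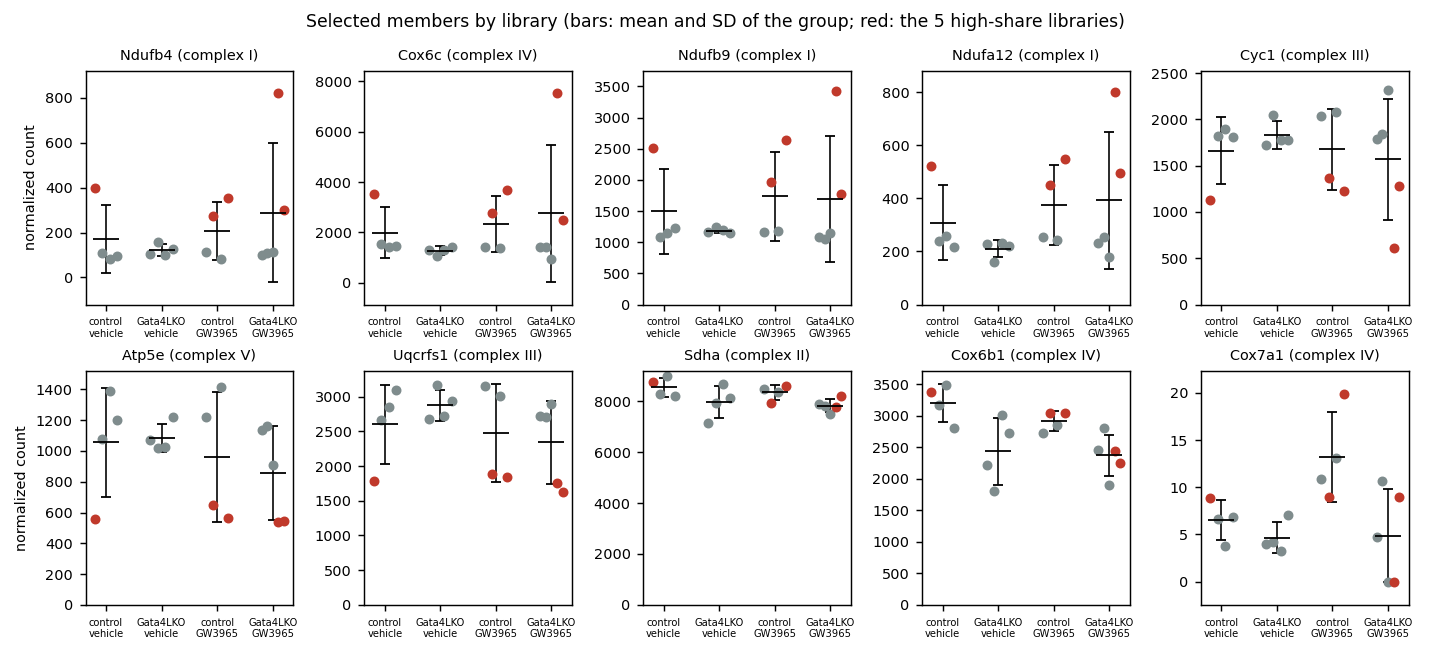
Normalized counts of 10 members in each library (points; red, the 5 libraries with a high mitochondrial share), with the group mean and SD (bars), for 4 members high in the 5 libraries (Ndufb4, Cox6c, Ndufb9, Ndufa12), 3 low in them (Cyc1, Atp5e, Uqcrfs1) and 3 that overlap (Sdha, Cox6b1, Cox7a1). The y axes start at 0 or below and differ between panels.

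Promoter sequence was examined for the members that lay apart in the 5 libraries. A window of 300 bases (250 before to 50 after the start) was present for 68 of the 85 members in the RefSeq table of GRCm38.p6. The NRF1-like motif, GCGCA and GCGC with 1 base of any kind between them, was found on either strand in windows of 17 of the 68 members (25.0%), against 5.19% of 27025 genes with a window. A gene with more than 1 window counted once. The 27025 genes were not filtered by gene type or by expression in liver, whereas all members are protein-coding and most were expressed. The ETS motif CCGGAAG was found for 17 (25.0% against 9.93%), the YY1 motif AAGATGGC for 10 (14.7% against 3.19%) and the ERR motif TNAAGGTCA for 3 (4.41% against 1.43%). At least 1 of these motifs was found for 38 members (55.9%), against 17.7% of all genes. N stands for any base, and matches of different motifs were counted separately. Of the 12 members high in the 5 libraries, 10 had a window and 5 of these held a motif. Of the 17 low members, 13 had a window and 7 held one, so matches stood in both sets. Of the 51 tested members in neither set, 43 had a window and 26 of these held a motif. The windows below show 2 members of each set with an NRF1-like match. Matches of the 4 motifs are in capitals, and each window is written along its gene's strand (GRCm38.p6). Ndufb4 (chr16:37654319-37654618, minus strand) and Ndufs6 (chr13:73328433-73328732, minus strand) were high in the 5 libraries. Sdhd (chr9:50603800-50604099, minus strand) and Uqcrc1 (chr9:108936398-108936697, plus strand) were low.
Ndufb4: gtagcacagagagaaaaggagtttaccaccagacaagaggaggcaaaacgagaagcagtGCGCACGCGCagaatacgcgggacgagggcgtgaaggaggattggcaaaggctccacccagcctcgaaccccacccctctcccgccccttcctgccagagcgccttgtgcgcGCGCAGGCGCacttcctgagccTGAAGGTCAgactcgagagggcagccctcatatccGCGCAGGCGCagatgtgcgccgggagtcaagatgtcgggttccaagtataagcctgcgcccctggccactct
Ndufs6: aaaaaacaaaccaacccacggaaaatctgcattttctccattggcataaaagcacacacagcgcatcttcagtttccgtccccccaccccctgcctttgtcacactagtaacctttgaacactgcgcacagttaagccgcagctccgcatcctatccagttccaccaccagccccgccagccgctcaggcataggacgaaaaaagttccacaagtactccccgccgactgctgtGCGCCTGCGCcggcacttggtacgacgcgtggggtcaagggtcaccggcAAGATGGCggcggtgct
Sdhd: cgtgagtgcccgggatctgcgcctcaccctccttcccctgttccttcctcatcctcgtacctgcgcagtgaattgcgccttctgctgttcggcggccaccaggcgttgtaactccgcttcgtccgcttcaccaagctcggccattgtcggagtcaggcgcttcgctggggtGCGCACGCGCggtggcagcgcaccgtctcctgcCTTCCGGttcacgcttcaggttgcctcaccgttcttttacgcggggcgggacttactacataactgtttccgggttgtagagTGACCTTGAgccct
Uqcrc1: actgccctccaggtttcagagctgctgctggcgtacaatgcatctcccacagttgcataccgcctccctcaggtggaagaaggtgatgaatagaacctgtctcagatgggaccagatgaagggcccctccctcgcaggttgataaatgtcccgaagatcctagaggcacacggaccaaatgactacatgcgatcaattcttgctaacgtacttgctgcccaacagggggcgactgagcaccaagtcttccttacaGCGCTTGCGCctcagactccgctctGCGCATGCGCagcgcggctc
The Ndufb4 window held 3 NRF1-like matches and 1 ERR match, and that of Ndufs6 held 1 NRF1-like match and a YY1 match. The Sdhd window held NRF1-like, ETS and ERR matches, 1 of each, and the Uqcrc1 window 2 NRF1-like matches. A match is a description of the letters and not a binding site.

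Between libraries labelled Gata4LKO and controls with vehicle, 0 of 80 members passed the test. Limma called 0.0149% of all tested genes at an adjusted p below 0.05. At an unadjusted p below 0.05, limma gave 1 member (Cox6b1), where 6.15% of all genes passed, and edgeR, DESeq2 and the authors' deposited table called 0 at an adjusted p below 0.05, where that table called 0.434% of its genes. The log2 difference was negative for 60 of 80 members, against 51.5% of all genes, and its median was -0.12, against -0.0081. When libraries were scaled to the total without mitochondrially encoded genes, the median of all genes moved to 0.10 and that of the members to -0.0077, which is -0.11 relative to all genes. Under that scaling 41 of 80 members were negative, against 32.3% of all genes. Without the 5 high-share libraries 66 of 80 were negative, with a median of -0.15, and 0 were called. Over all genes 51.9% were negative in that setting, with a median of -0.0097, and 14 of 13379 were called. The mean log2 level of the members was 9.73 to 9.78 in the 4 control and 9.56 to 9.68 in the 4 Gata4LKO libraries. In 13 members all 4 Gata4LKO libraries lay below all 4 controls, where 3.58% of all genes did so, and 0 lay above, where 3% did. They were Ndufa1, Ndufa2, Ndufa3, Ndufa5, Ndufa6, Ndufa13, Ndufb1, Ndufb10, Uqcr11, Uqcrh, Cox7a2, Atp5j and Atp5k, 8 of them of complex I. Of these 13, 4 are also among the 12 members high in the 5 libraries, of which control vehicle holds 1 and Gata4LKO vehicle 0. The accessory subunit Ndufa2 lay at 401 to 449 normalized counts in Gata4LKO and at 475 to 495 in control libraries, a log2 difference of -0.18 ± 0.10 (SE; 95% interval -0.40 to 0.04). By complex, the median log2 difference was -0.16 in I, -0.0075 in II, -0.038 in III, -0.14 in IV and -0.054 in V.

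Cox6b1 (chromosome 7, 30616861 to 30626151, minus strand) had 3377, 3171, 3483 and 2801 normalized counts in control vehicle and 2225, 1809.6, 3012 and 2720 in Gata4LKO vehicle libraries. The groups overlapped through a control at 2801 and a Gata4LKO library at 3012. The log2 difference was -0.42 ± 0.14 (95% interval -0.72 to -0.11; limma adjusted p = 0.560). The other largest negative differences were those of Ndufa4l2 (-0.61 ± 0.39), Atp5k (-0.60 ± 0.36) and Cox5b (-0.54 ± 0.31). The largest positive were those of Uqcrfs1 (0.17 ± 0.22), Cyc1 (0.17 ± 0.31) and Ndufb11 (0.14 ± 0.24). All 3 of the latter were lower in replicate 1 of control vehicle, the high-share library of that group, and without it Cyc1 was at -0.011, Ndufb11 at 0.011 and Uqcrfs1 at 9.54e-05. Cox5b was at -0.30 without the same library, and Atp5k at -0.35 without replicate 6 of Gata4LKO vehicle. For 69 of 80 members the 95% interval lay within 1 log2 unit of 0, against 73% of all genes. Among the cell markers, all 10 of Kupffer cells had positive differences (median 0.66), with summed counts of 2389 to 3334 in control and 4155 to 5071 in Gata4LKO libraries. All 8 of hepatocytes had negative ones (median -0.16), with sums of 1806180 to 1993270 and 1465260 to 1708190. The 5 leukocyte markers summed to 538 to 826 in control and 953 to 1623 in Gata4LKO libraries. Sums of the sinusoidal endothelium, stellate cell, cholangiocyte and erythroid lists overlapped. The part of these cell types in the members' differences was not tested.

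With GW3965, 0 of 80 members passed between libraries labelled Gata4LKO and controls, where limma called 0.0598% of all genes. Limma gave 4 members at an unadjusted p below 0.05 (6.47% of all genes), and edgeR, DESeq2 and the authors' deposited table called 0 at an adjusted p below 0.05, where that table called 0.51% of its genes. Differences were negative for 63 of 80, against 52.9% of all genes, with a median of -0.0996 against -0.014 over all genes. Under scaling without mitochondrially encoded genes the members' median was 0.020, which is -0.085 relative to the median of all genes, and 37 of 80 were negative against 29.3% of all genes. Without the 5 high-share libraries, 72 of 80 were negative, with a median of -0.14, and 0 were called. Over all genes 51.6% were negative in that setting, with a median of -0.0079, and 9 of 13379 were called. Among the cell markers, 7 of 8 of stellate cells and fibroblasts had positive differences (median 0.53), with summed counts of 3135 to 3832 in control and 4079 to 5962 in Gata4LKO libraries. Differences were positive for 6 of 10 Kupffer cell markers and for 4 of 8 hepatocyte markers, and the part of cell makeup in the members' differences was not tested. Ndufs8, an iron-sulfur subunit of complex I (chromosome 19, 3908863 to 3912774, minus strand), had 777, 852, 886 and 893 normalized counts in control GW3965 and 789.9, 733, 630.3, 565 and 681 in Gata4LKO GW3965 libraries. Only replicate 14 of Gata4LKO, at 789.9, was above the lowest control. The log2 difference was -0.33 ± 0.10 (95% interval -0.55 to -0.11; limma adjusted p = 0.412), and -0.22 without the high-share libraries. Cox6b1 was at -0.31 ± 0.14 (limma adjusted p = 0.734). For 72 members the 95% interval lay within 1 log2 unit of 0, against 75.9% of all genes. In 0 members did the groups not overlap, where 1.14% of all genes were lower and 0.822% higher in this way.

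The members with the largest negative differences in this comparison were low in counts. Cox7a1 (chromosome 7, 30184144 to 30186078, plus strand) had 10.8, 9.0, 13.1 and 19.9 normalized counts in control GW3965, and 4.71, 10.6, 0, 0 and 8.93 in Gata4LKO GW3965. The log2 difference was -1.90 ± 0.69 (limma adjusted p = 0.585), and 4 of the 5 Gata4LKO libraries lay below every control, with the exception at 10.6. Markers of striated muscle summed to 3.16 to 43.0 and of adipose tissue to 0 to 78.1 normalized counts over all libraries. Atp5g2 had 10.002, 19.0, 10.5 and 22.6 in control GW3965 and 10.2, 8.99, 3.98, 5.78 and 8.93 in Gata4LKO GW3965 libraries, a log2 difference of -0.93 ± 0.34 (limma adjusted p = 0.600) that was -0.45 without the high-share libraries. Ndufs5 was at -0.50 ± 0.41, and the largest positive differences were those of Ndufa4l2 (0.53 ± 0.37), Uqcrb (0.23 ± 0.26) and Ndufb2 (0.20 ± 0.29). Without replicate 17 of Gata4LKO GW3965, Ndufs5 was at -0.25, Uqcrb at -0.071 and Ndufb2 at -0.048, and without replicate 10 of control GW3965 Ndufa4l2 was at 0.23.

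GW3965 against vehicle in controls gave 0 of 80 members past the test, where limma called 0.792% of all genes. At an unadjusted p below 0.05, limma gave 0 members, where 8.96% of all genes passed, and edgeR, DESeq2 and the authors' deposited table also called 0 at an adjusted p below 0.05, where that table called 1.62% of its genes. The median was -0.03, against -0.0050 over all genes, and 47 of 80 were negative, against 50.9%. The 95% interval lay within 1 log2 unit of 0 for 74 members, against 71.9% of all genes, and within 0.5 for 47. Only Cox7a1 did not overlap, with 8.84, 6.68, 3.78 and 6.79 in control vehicle below all 4 GW3965 values, where 3.13% of all genes were higher and 2.71% lower in this way. Its log2 difference was 0.91 ± 0.72 (limma adjusted p = 0.842). Ndufb4 (0.37 ± 0.62) and Ndufa12 (0.29 ± 0.40) followed, and Ndufa4l2 (-0.57 ± 0.39), Atp5md (-0.33 ± 0.57) and Atp5h (-0.21 ± 0.15) were the most negative. Without replicate 13 of control GW3965, Ndufb4 was at 0.029, Ndufa12 at 0.073, Atp5md at 0.077 and Atp5h at -0.11. Without replicate 1 of control vehicle, Ndufb4 was at 0.89, Ndufa12 at 0.57 and Atp5md at -0.84, and without replicate 10 of control GW3965 Ndufa4l2 was at -0.27.

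In libraries labelled Gata4LKO, GW3965 against vehicle called 0 of 80 members, where limma called 0.247% of all genes. Limma gave 3 members at an unadjusted p below 0.05, Ndufv1, Ndufs7 and Atp5g2, where 12% of all genes passed, and edgeR, DESeq2 and the authors' deposited table called 0 at an adjusted p below 0.05, where that table called 1.33% of its genes. The median was -0.0087, against -0.0049, with 40 of 80 negative against 50.6%. Ndufv1, which takes electrons from NADH, lay below every vehicle library, at 1035 to 1990.3 against 2112 to 2133, with a log2 difference of -0.41 ± 0.18 (limma adjusted p = 0.387). Atp5g2 did so too (-0.76 ± 0.34; limma adjusted p = 0.390), and 2.34% of all genes were lower and 2.91% higher in this way. For 65 members the 95% interval lay within 1 log2 unit of 0, against 71.4% of all genes. Ndufb4 (0.71 ± 0.59), Ndufa12 (0.68 ± 0.37) and Cox6c (0.68 ± 0.46) had the largest positive differences, and Cox7a1 (-0.58 ± 0.69) and Atp5e (-0.42 ± 0.31) were also negative. High-share libraries were 2 of 5 with GW3965 and 0 of 4 with vehicle in this comparison, and without them Ndufb4 was at -0.16, Cox6c at -0.043, Ndufa12 at 0.08, Atp5e at -0.025 and Ndufv1 at -0.15. Without replicate 17 of Gata4LKO GW3965 alone, Cox7a1 was at -0.11.

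**Figure D5:**
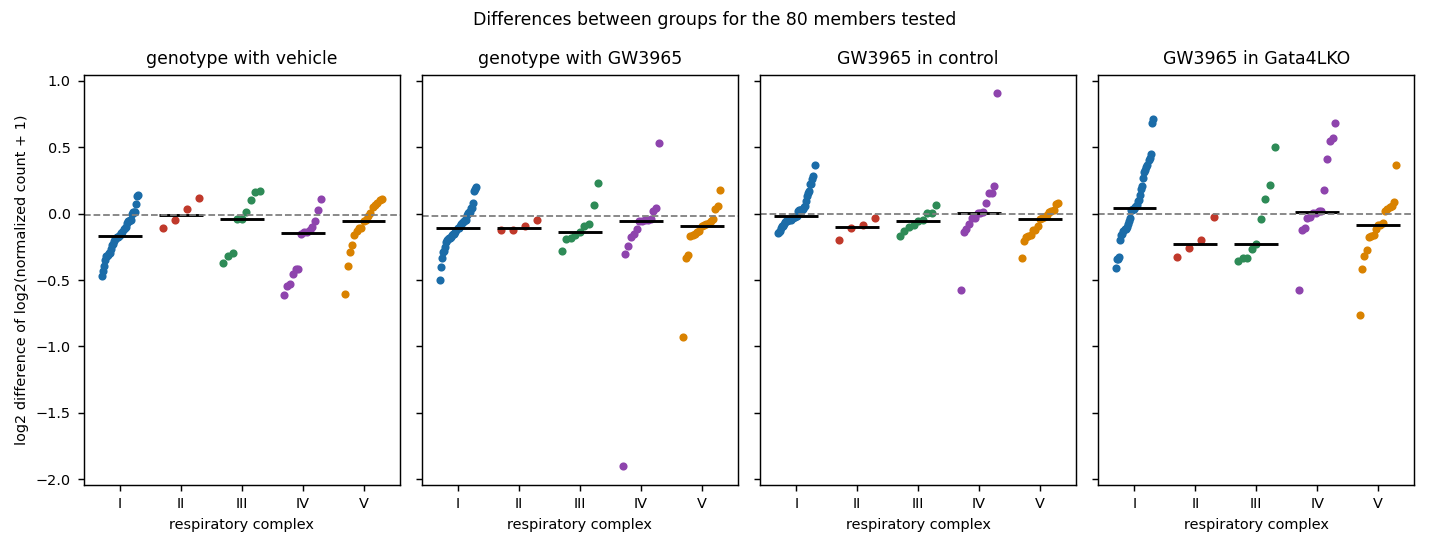
Log2 differences of log2(normalized count + 1) for the 80 tested members in 4 comparisons, by complex (points, members in rising order; black bars, medians of the complex; dashed line, median of all 13379 genes). In the first comparison 60 of 80 points and in the second 63 of 80 lie below 0, and 0 of the members passed the test in any of the 4.

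The interaction of genotype and treatment called 0 of 80 members, where limma called 0.0149% of all genes. Limma gave 1 member at an unadjusted p below 0.05, Ndufa4l2 (1.15 ± 0.54; limma adjusted p = 0.997), where 4.65% of all genes passed, and edgeR, DESeq2 and the authors' deposited table, which called 0.19% of its genes, called 0. Ndufa4l2 had 18.9, 16.7, 14.2 and 26.2 normalized counts in control vehicle, 12.01, 10.5, 9.03 and 16.6 in Gata4LKO vehicle, 20.8, 6.0, 15.7 and 10.6 in control GW3965 and 18.1, 12.3, 25.8, 11.6 and 27.9 in Gata4LKO GW3965. The 4 groups overlapped. The median interaction was 0.0095, and for 61 members the 95% interval lay within 1 log2 unit of 0, against 57.6% of all genes.

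Genes around the chain did not pass the test either. Over all genes, limma called 0.0149% to 0.792% in the 5 comparisons, and 4.65% to 12% had an unadjusted p below 0.05. Of 49 assembly factors, 19 regulators of mitochondrial biogenesis, 14 citrate cycle enzymes and 27 genes of electron carriers and exchange, limma called 0 in each direction in each of the 5 comparisons, and likewise of 77 tested mitochondrial ribosome genes. The counts at an unadjusted p below 0.05 were at most 4 of 49, 1 of 19, 1 of 14, 3 of 27 and 3 of 77 in a comparison. Ppargc1a, a coactivator that drives mitochondrial biogenesis, had the largest negative difference of its list between genotypes with vehicle (-0.49 ± 0.32) and the largest positive with GW3965 (0.63 ± 0.31; limma adjusted p = 0.790). Its interaction was 1.12 ± 0.45 (limma adjusted p = 0.976). Nrf1 was at 0.20 ± 0.16 with vehicle and 0.02 ± 0.16 with GW3965. Cycs, the mobile cytochrome c, was at 0.04 ± 0.35 and 0.25 ± 0.33 in the same comparisons.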

How the data were processed

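Liver mRNA of 17 libraries was measured by RNA-seq. Alignment used STAR 2.6.0c to mm10, and FastQC and DESeq2 are listed too, per the submitters' processing notes. No source used here gives the read counter, its annotation or strand setting. The authors deposited a table of normalized counts, a signal equal to the reads of a gene over a size factor of its library: every value came out whole within 0.05 read (largest distance 0.000342 read) when multiplied back, and 100% of values did so. The authors' deposited tables of comparisons hold log2 fold changes with raw and adjusted p-values, per the file headers.

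Library columns were matched to samples by name, and groups follow the titles. Values entered as log2(normalized count + 1) into limma-trend (R 4.3.3, limma 3.58.1), with all 17 libraries in 1 fit, on the 13379 genes with at least 10 in at least 4 libraries, with Benjamini-Hochberg adjustment over all of them. Called means an adjusted p under 0.05. Differences are on the log2(value + 1) scale, ± SE, and understate changes of low genes. Alternatives used edgeR 4.0.16 and DESeq2 1.42.0 on recovered reads, other scalings and filters, and fewer libraries. The fit was tested on simulated data. Transcript lengths are the median over protein-coding transcripts of the GENCODE M21 basic set (mm10), which held all 85 member identifiers, and shared stretches were counted over its transcripts of all kinds, on both strands.

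The members and the gene lists were chosen with earlier results of these data known. Named members were the 3 with the largest positive and negative differences in each pairwise comparison, core subunits, isoform pairs, members below the filter, and the most and least abundant per complex. Members named for their difference between the 5 high-share libraries and the others, for groups that do not overlap, for their spread, for an unadjusted p below 0.05 or for their promoter were chosen after their values were seen. Comparisons that share a group share its libraries. The values of 1 member are not reported here or drawn in the plots that label each member, though it stays in all counts and sums.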

Additional observations from a re-analysis of the deposited data

Results flagged for a closer look

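Of 112 groups of values checked, over 26 named members and 2 summaries, 14 had a library whose gap to the others was above Dixon's critical value for its group size at the 95% level. Chance flags about 1 in 20 groups, and 13 of the 14 were in libraries with a high mitochondrial share.

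In control vehicle replicate 1, Ndufb4 was at 399 normalized counts, Cox6c at 3514, Ndufa12 at 520.5, Cox5b at 1027 and Atp5k at 1862, each above the 3 other control vehicle libraries. In the same library Cyc1 was at 1128, Atp5b at 12573, Cox5a at 1210.2 and Ndufs5 at 30.3, each below the other 3. In Gata4LKO GW3965 replicate 17, which had the highest mitochondrial share, Ndufb4 was at 819, Cox6c at 7525, Ndufs1 at 2942 and Uqcrb at 1326, each above the other 4 libraries of its group. In Gata4LKO vehicle replicate 6, Cyc1 was at 2052 against 1723 to 1776 in the other 3. That library is not among the high-share ones and had the fewest genes above 0.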

How the results depend on the processing

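Under every alternative run, 0 members were called in any of the 5 comparisons, where 0 to 221 of all tested genes were called. Counts of members at an unadjusted p below 0.05 moved more. For genotype with vehicle the main fit gave 1. It was 13 with only the groups compared, 10 without the 5 high-share libraries and 9 with the mitochondrial share as covariate. For genotype with GW3965 the main fit gave 4, and these settings gave 3, 9 and 14. The share of all genes at that p was not counted in these settings. Of the values of single members, 465 kept their sign and 15 changed it. Of 108 medians of the members, 17 changed sign: 0 of 19 for genotype with vehicle, 1 of 21 for genotype with GW3965, 2 of 20 for GW3965 in control (range -0.045 to 0.0071), 6 of 20 for GW3965 in Gata4LKO (-0.041 to 0.015) and 8 of 28 for the interaction (-0.03 to 0.039). No paired analysis was possible because the groups share no replicate numbers. Scaling to the total without mitochondrially encoded genes moved the members' median to -0.0077 (genotype with vehicle) and 0.020 (genotype with GW3965), where all genes moved to 0.10 in both. Values that changed sign were Cox7a1 for GW3965 in Gata4LKO (0.17 with edgeR, 0.17 with DESeq2). With the mitochondrial share as covariate they were Cyc1 for genotype with vehicle (-0.0062), Ndufb4 for GW3965 in control (-0.012) and in Gata4LKO (-0.13), and Atp5e for GW3965 in Gata4LKO (0.0039). Without the 5 high-share libraries they were Cyc1 for genotype with vehicle (-0.011), Uqcrb (-0.019) and Ndufa4l2 (-0.014) for genotype with GW3965, and Cox6c (-0.043) and Ndufb4 (-0.16) for GW3965 in Gata4LKO. That setting and the one without libraries of low Gm5345 were chosen after seeing the data. Leaving out 1 library at a time gave ranges of -0.011 to 0.24 for Cyc1 (genotype with vehicle; lowest without control vehicle 1) and -0.84 to 0.077 for Atp5md (GW3965 in control; highest without control GW3965 13). With GW3965, genotype differences ranged from -0.048 to 0.35 for Ndufb2 and from -0.071 to 0.36 for Uqcrb, lowest without Gata4LKO GW3965 17 in both. None of these values passed the test, and the cause was not tested. Members under about 20 counts, such as Cox7a1 and Atp5g2, are limited by depth.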

Other observations

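Mitochondrially encoded transcripts had no called gene between groups, though all 7 tested genes were lower in libraries labelled Gata4LKO with vehicle (median log2 difference -0.48) and all 7 were higher with GW3965 in these libraries (median 0.89). The high-share libraries were 1 of 4 in control vehicle, 0 of 4 in Gata4LKO vehicle and 2 of 5 in Gata4LKO GW3965, so these medians move with them.

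Among the cell marker lists, 1 gene was called in any comparison: Cd5l, a macrophage-secreted protein, rose with GW3965 in controls (log2 difference 1.21 ± 0.21, limma adjusted p = 0.0126). The other 9 Kupffer cell and macrophage markers did not pass in that comparison, with a list median of 0.47.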
